A study of Mus musculus with 9 samples.

Results

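Glycolysis, pyruvate and lactate genes were followed in forebrain RNA-seq of mouse embryos with and without a heterozygous deletion of *Npas3*, which codes for a brain-expressed transcription factor of the basic helix-loop-helix PAS family. The set holds 35 gene symbols, chosen by name for their place in the pathway. A row of the count table was a member when its symbol was in the list, which gave 36 of the table's 55401 rows, because *Aldoa* has 2 rows. The samples were 5 wild-type (WT, Npas3+/+) and 4 Npas3+/- (HET) forebrains, each from a separate female embryo at E16 to E17, on the C57BL/6J background. The HET embryos carried a constitutive knockout allele, present in every cell from conception, and WT littermates served as controls. No treatment was given to either genotype. Neither the litter nor the exact day of each embryo was given in the sources used here, so the spread of age cannot be told apart from that between embryos. The total count was between 42640218 and 51588211 per embryo, apart from 62830060 in WT embryo 41.

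Glycolysis converts glucose to pyruvate in the cytosol and yields ATP without oxygen. Lactate dehydrogenase interconverts pyruvate and lactate, monocarboxylate carriers move lactate across the plasma membrane, and the mitochondrial pyruvate carrier and the pyruvate dehydrogenase complex deliver pyruvate carbon to the citric acid cycle. In brain, astrocytes are known for strong glycolysis and lactate release and neurons for lactate uptake, and several steps are served by isoforms that differ between cell types.

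Although the labels give astrocytes as cell type, the tissue was bulk forebrain. Neuronal *Tubb3* stood at 1575 to 1885 CPM (read counts scaled to library size by edgeR's TMM method) across the 9 embryos, and the 6 astrocyte markers ran from *S100b* at 0.0883 to 0.326 CPM and *Aqp4* at 0.163 to 2.02 CPM, over *Gfap* at 4.23 to 12.5 CPM and *Aldh1l1* at 2.79 to 31.7 CPM, to *Gja1* at 75.5 to 102 CPM and *Slc1a2* at 82.7 to 185 CPM. *Npas3* itself was at 40.8, 35.4, 29.7, 38.3 and 37.01 CPM in WT and 27.9, 28.2, 34.1 and 27.8 CPM in HET embryos, for embryos in the order WT 5, 15, 16, 41 and 43 and then HET 5, 6, 7 and 24, an order kept for all values below. The genotypes overlapped through WT embryo 16 and HET embryo 7, and the log2 fold change was −0.30 (edgeR unadjusted p 0.0134, adjusted p 0.877). The deleted stretch of the gene is not given in the sources used here, so counts over the whole gene may include reads from the targeted allele. RNA of the choroid plexus was unequal: *Ttr*, its most abundant secretory transcript, reached 467 CPM in HET embryo 24 and 2127 to 2631 CPM in 3 WT embryos (15, 16 and 41), and the other 5 embryos had 0.770 to 11.7 CPM. In bulk tissue, fewer cells of a type and less RNA per cell cannot be told apart.

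No member of the pathway passed the test of HET against WT forebrain over all genes. All 36 rows passed the filter on low counts, and 0 of them had an adjusted p under 0.05 in edgeR's quasi-likelihood test, against 25 of the 17818 genes tested, or 0.14%. DESeq2 also called 0 members. The lowest adjusted p among the members was 0.738, for *Tpi1*, and 33 of the 36 were above 0.9. Without adjustment, 4 of 36 members (11.1%) had an edgeR p under 0.05, beside 5.42% of all genes tested. DESeq2 gave 3 members, beside 3.66% of all genes in that fit. The 4 members from edgeR were *Tpi1*, *Pfkl* and *Ldhb*, lower in HET, and *Slc16a3*, higher in HET. In 0 of 36 members did the HET embryos lie wholly on one side of the WT embryos, beside 1.85% of all genes tested.

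The bounds on a difference were narrow for most of the pathway. The 95% interval of the fold change lay within 1.5-fold in either direction for 33 of 36 members (91.7%), beside 70.2% of all genes tested. The 3 whose interval reached past 1.5-fold were *Hk2*, *Slc16a3* and *Pdk4*. By sign, 20 members were lower and 16 higher in HET, a share of 55.6% lower beside 51.5% of all genes, and the median log2 fold change was −0.027 beside −0.005. The median within-group SD of log2 CPM was 0.135 over the members and 0.184 over all genes tested. The p-values set the genotype difference against the spread between embryos of the same genotype. Litters are not given and could not enter the model.

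**Figure D1:**
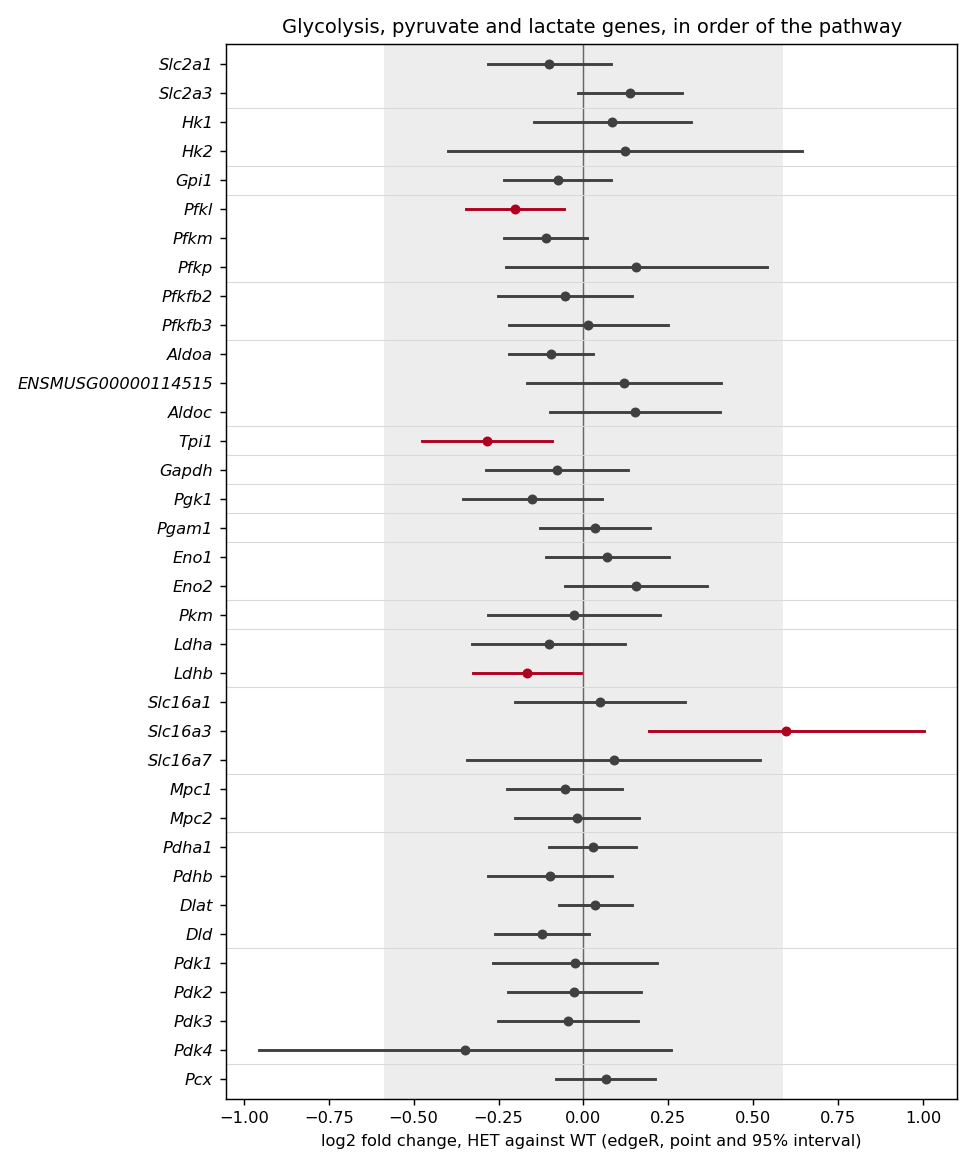
Log2 fold change of each member in HET against WT forebrain (edgeR, points) with its 95% interval (bars), ordered along the pathway. The grey band spans 1.5-fold in either direction and red marks an unadjusted p under 0.05. Of the 36 intervals, 33 lie inside the band, and the widest are those of *Hk2* and *Pdk4*.

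Levels were compared between genes as CPM per kilobase of exon, the exonic length being the union of all exons of a gene in GENCODE M21. Averaged over the 9 embryos, *Pkm* led at 190.4 CPM per kilobase, followed by *Gapdh* at 127, *Ldha* at 124, *Ldhb* at 105, *Tpi1* at 78.5, *Pgk1* at 62.9, *Aldoc* at 60.6 and *Aldoa* at 55.9. The range of *Pkm* over the embryos, 165 to 232, lay above that of *Gapdh*, 109.5 to 142, whereas the ranges of *Gapdh*, *Ldha* and *Ldhb* overlapped, as did those of *Pgk1*, *Aldoc* and *Aldoa*. The lowest members on this scale were *Pfkp* at 3.37, the second *Aldoa* row (ENSMUSG00000114515) at 3.27, *Slc16a7* at 1.40, *Slc16a3* at 0.706 and *Pdk4* at 0.701, the last 2 with overlapping ranges. The order depends on the length used. With the principal transcript of each gene as its length, *Pkm* stood at 392 and *Gapdh* at 369 CPM per kilobase, *Eno1* moved from rank 11 to rank 7 and *Mpc2* from rank 31 to rank 17. On that length the ranges of *Pkm*, 339 to 477, and *Gapdh*, 319 to 414, overlapped. *Aldoa*, at 108, then stood above *Aldoc*, at 70.9.

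Summed over the members of a step, lactate dehydrogenase had the highest level, with a WT mean of 239 ± 17.0 CPM per kilobase (SD, n = 5) and a HET mean of 218 ± 22.2 (SD, n = 4), and pyruvate carboxylase the lowest, with means of 10.04 ± 0.779 and 10.5 ± 0.277. With the principal transcript length, lactate dehydrogenase ranked 3 among the step sums, at a mean of 359 CPM per kilobase over all embryos, below pyruvate kinase at 392 and glyceraldehyde-3-phosphate dehydrogenase at 369. Of the 18 step sums, 1 separated the genotypes, that of phosphofructokinase, beside 1.85% of single genes tested. The share over sums of other genes was not computed. The summed level of phosphofructokinase was 68.2 to 76.0 CPM per kilobase in WT and 62.0 to 65.8 in HET embryos. The separation was also seen with DESeq2 size factors, upper-quartile scaling and the principal transcript length, which all reuse the same counts. Under upper-quartile scaling it was narrow, with HET embryos up to 66.6 and WT embryos from 66.8. It is a description of 18 sums without a test.

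**Figure D2:**
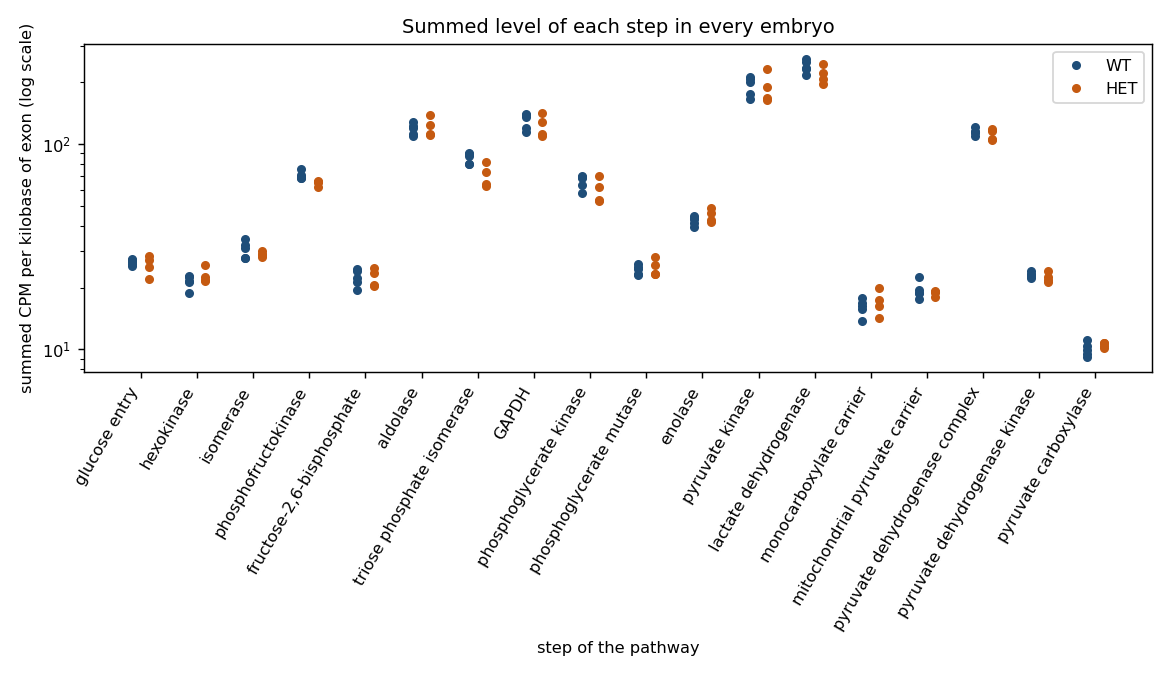
Summed level of each step of the pathway in every embryo, in CPM per kilobase of exon on a log axis, WT in blue and HET in orange. HET embryos lie at 62.0 to 65.8 and WT embryos at 68.2 to 76.0 for phosphofructokinase, and the genotypes overlap at every other step.

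NPAS3 belongs to a family whose members bind short E-box-like sites, and the study treats CANNTG as its consensus, so the promoter windows of the members were read for this motif and for ACGTG, the core recognised by hypoxia-type members of the same family. RefSeq promoter windows on GRCm38.p6, from 250 bases before to 50 bases after each RefSeq start, matched 33 of the 35 symbols and gave 51 windows. *Slc2a3* and *Slc16a7* had no entry. CANNTG, which is its own reverse complement in its fixed letters, occurred in 35 member windows (68.6%) and in 72.3% of all 32851 windows, or 69% of those of protein-coding genes. ACGTG, read on both strands, occurred in 23 member windows (45.1%), beside 19.6% of all windows and 20.9% of protein-coding ones. CACGTG, which satisfies both motifs, was in 7 member windows (13.7%), beside 7.15% of all. Some windows of the same gene overlap, and a match is a description of letters, not a binding site.

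The bases before the RefSeq start are shown for the 3 members with an unadjusted p under 0.05 in both edgeR and DESeq2, and for *Ldha*, whose window held the most ACGTG matches of any member. These starts differ from the GENCODE M21 gene limits. By those limits the stretches of *Pfkl*, *Slc16a3* and *Ldha* lie inside the gene and that of *Tpi1* partly inside, so they are not all upstream sequence. Each stretch runs 5′ to 3′ on the strand of the gene, and capitals mark CANNTG and ACGTG matches on either strand.
Tpi1, chr6:124814159-124814408, minus strand: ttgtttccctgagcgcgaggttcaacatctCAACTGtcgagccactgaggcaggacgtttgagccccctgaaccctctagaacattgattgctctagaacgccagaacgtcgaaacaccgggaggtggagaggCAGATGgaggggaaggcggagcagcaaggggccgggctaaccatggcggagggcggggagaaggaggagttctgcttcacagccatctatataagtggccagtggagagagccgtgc
Pfkl, chr10:78009808-78010057, minus strand: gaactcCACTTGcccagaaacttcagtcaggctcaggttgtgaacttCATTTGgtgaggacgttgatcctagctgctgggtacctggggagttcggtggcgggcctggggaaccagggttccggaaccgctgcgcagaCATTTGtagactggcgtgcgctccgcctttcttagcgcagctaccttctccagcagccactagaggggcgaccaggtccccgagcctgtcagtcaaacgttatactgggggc
Slc16a3, chr11:120948817-120949066, plus strand: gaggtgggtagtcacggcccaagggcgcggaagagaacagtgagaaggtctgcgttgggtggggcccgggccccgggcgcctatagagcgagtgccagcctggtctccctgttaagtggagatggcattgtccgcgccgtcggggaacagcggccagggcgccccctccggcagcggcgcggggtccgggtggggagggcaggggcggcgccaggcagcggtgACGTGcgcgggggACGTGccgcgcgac
Ldha, chr7:46845554-46845803, plus strand: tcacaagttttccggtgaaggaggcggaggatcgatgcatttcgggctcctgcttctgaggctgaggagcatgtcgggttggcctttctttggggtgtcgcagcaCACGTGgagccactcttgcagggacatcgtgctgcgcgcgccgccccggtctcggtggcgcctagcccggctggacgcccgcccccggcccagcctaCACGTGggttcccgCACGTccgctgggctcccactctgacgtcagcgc
The *Tpi1* window held CANNTG matches at −220 and −117, and the *Pfkl* window at −244, −203 and −112, counted from the RefSeq start, and neither held ACGTG. The *Slc16a3* window held ACGTG at −27 and −14 and no CANNTG. In *Ldha*, CACGTG lay at −145 and −48 and a further ACGTG match on the opposite strand at −34. The single window of *Ldhb* held neither motif.

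Glucose entry and its phosphorylation were served by 2 genes each. *Slc2a1*, the glucose carrier of brain endothelium and glia, was at 75.5, 69.3, 75.2, 74.6 and 71.3 CPM in WT and 78.1, 66.9, 70.7 and 57.3 CPM in HET embryos. HET embryo 24 was the lowest of all and HET embryo 5 the highest, and the log2 fold change was −0.10 (95% interval −0.28 to 0.08). *Slc2a3*, the carrier of neurons, ranged over 38.5 to 50.4 CPM and had a log2 fold change of 0.14 (95% interval −0.02 to 0.29). Its share of the summed carrier level per kilobase was 21.4% ± 0.955 (SD) in WT and 24.4% ± 1.72 (SD) in HET, with overlap through HET embryo 5.

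*Hk1*, the hexokinase bound to mitochondria in most brain cells, was at 125, 148, 125, 140.2 and 129.99 CPM in WT and 119, 129, 174 and 145 CPM in HET embryos. HET embryo 7 was above every other embryo, and the log2 fold change was 0.08 (95% interval −0.15 to 0.32). *Hk2*, the inducible hexokinase, was among the most variable members, at 48.5, 23.9, 25.2, 29.2 and 43.4 CPM in WT and 50.5, 38.1, 31.95 and 27.7 CPM in HET embryos. High values occurred in both genotypes, in WT embryos 5 and 43 and HET embryo 5, all 3 with *Ttr* under 100 CPM, and the 4 embryos with *Ttr* over 100 CPM were the 4 lowest for *Hk2*. The log2 fold change of 0.12 (95% interval −0.40 to 0.64) turned to −0.13 when a choroid plexus score (averaged over 8 markers on the log2 scale) entered the model, and to −0.19 in the subset with *Ttr* under 100 CPM, which holds 2 WT and 3 HET embryos. None of these passed the test. *Hk2* made up 18.7% to 37.8% of the hexokinase level per kilobase.

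*Gpi1*, glucose-6-phosphate isomerase, was at 207, 181, 180.4, 200.2 and 222 CPM in WT and 195, 187, 189 and 181 CPM in HET embryos. The HET embryos lay within the range of WT, and the log2 fold change was −0.08 (95% interval −0.23 to 0.08). A neighbour in antisense orientation overlaps 11.5% of its exonic sequence, and whether the counting used strand is not given in the sources used here.

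Phosphofructokinase commits sugar to glycolysis as a tetramer of subunits from 3 genes. *Pfkl*, the liver-type subunit, on chromosome 10 from 77986947 to 78010083 (GRCm38), was at 143, 129, 139.7, 132 and 154 CPM in WT and 129.99, 119.7, 119.9 and 116 CPM in HET embryos. HET embryos 6, 7 and 24 lay below every WT embryo, and HET embryo 5 lay above WT embryo 15. The means were 139.6 ± 9.90 CPM in WT and 121 ± 5.89 CPM in HET (SD, n = 5 and 4), a log2 fold change of −0.20 (95% interval −0.35 to −0.06), with an edgeR adjusted p of 0.816 and an unadjusted p of 0.0109. *Pfkm*, the muscle-type subunit and the most abundant per kilobase, was at 147, 154, 158, 150.3 and 166 CPM in WT and 146, 136, 145 and 147 CPM in HET embryos. Its genotypes overlapped, with a log2 fold change of −0.11 (95% interval −0.24 to 0.01). *Pfkp*, the platelet-type subunit, ranged over 31.5 to 58.2 CPM, lowest in HET embryo 5 and highest in HET embryo 7, with a log2 fold change of 0.16 (95% interval −0.23 to 0.54). The shares of *Pfkm* in the summed subunit level per kilobase were 65.8% ± 0.959 (SD) in WT and 66.3% ± 0.609 (SD) in HET, so the make-up was led by the muscle type in both genotypes.

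The bifunctional enzymes *Pfkfb2* and *Pfkfb3* make and degrade fructose-2,6-bisphosphate, an activator of phosphofructokinase. *Pfkfb3*, the more abundant per kilobase, was at 107, 118, 108, 129.7 and 138 CPM in WT and 135, 108, 137 and 106 CPM in HET embryos. Both genotypes spanned nearly the same range, and the log2 fold change was 0.01 (95% interval −0.22 to 0.25). *Pfkfb2* ranged over 39.4 to 51.04 CPM with a log2 fold change of −0.05 (95% interval −0.25 to 0.14), and 17.4% of its exonic bases lie under another gene on the same strand.

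Aldolase splits the hexose into triose phosphates. *Aldoc*, the isoform typical of astrocytes and other glia in brain, was at 207, 159, 208, 174 and 195 CPM in WT and 253, 219, 182 and 183 CPM in HET embryos. HET embryos 5 and 6 were above every WT embryo, HET embryos 7 and 24 were not, and the log2 fold change was 0.15 (95% interval −0.10 to 0.40). It was 0.05 without HET embryo 5 and 0.07 with the choroid plexus score in the model. *Aldoa*, the ubiquitous isoform (ENSMUSG00000030695), ranged over 149.8 to 178 CPM with a log2 fold change of −0.10 (95% interval −0.22 to 0.03). A further row under the *Aldoa* symbol, ENSMUSG00000114515, lies upstream on the same strand, on chromosome 7 from 126800790 to 126809108, and had only 2.25 to 3.05 CPM. The share of *Aldoc* in the aldolase level per kilobase was 48.6% ± 2.83 (SD) in WT and 52.6% ± 2.97 (SD) in HET, and the embryos overlapped. This near-even split depends on the length used. With the principal transcript length, *Aldoa* led at a mean of 108 CPM per kilobase, beside 70.9 for *Aldoc*. Of the astrocyte marker list of 6 genes, 5 were tested and 0 passed, the summed level was 186 to 318 CPM in WT and 220 to 262 CPM in HET, and none of its genes was at 0. The sum is carried by *Slc1a2* and *Gja1*. As the mean log2 CPM of its 6 genes, the list was at 2.90 to 3.37 in WT and at 2.32, 2.47, 3.29 and 2.81 in HET embryos, so HET embryos 5 and 6, the highest for *Aldoc*, were the lowest for this list. *Aqp4* was at 1.17 to 2.02 CPM in WT and 0.163 to 1.07 CPM in HET embryos, without overlap, with a log2 fold change of −1.63 (edgeR unadjusted p 0.0034, adjusted p 0.555), and *Aldh1l1* had −1.16 (edgeR unadjusted p 0.0183, adjusted p 0.904). In the rest of the list, *Gfap* had 0.08, *Gja1* −0.01 and *Slc1a2* −0.07. *S100b*, which was not tested, averaged 0.147 CPM in WT and 0.260 CPM in HET. The part of these markers in the *Aldoc* values was not tested.

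*Tpi1*, triose phosphate isomerase, had the lowest p of the members. It lies on chromosome 6 from 124810586 to 124814296 and was at 247, 219, 239.5, 221 and 248 CPM in WT and 225, 200.2, 171 and 175 CPM in HET embryos. HET embryos 6, 7 and 24 were below every WT embryo, and HET embryo 5 lay within the WT range. The means were 235 ± 14.1 CPM in WT and 193 ± 24.9 CPM in HET (SD, n = 5 and 4). The log2 fold change was −0.28 (95% interval −0.48 to −0.09), with an edgeR adjusted p of 0.738 and an unadjusted p of 0.00759. In the 17 alternative fits its log2 fold change stayed between −0.37 and −0.23, its unadjusted p was at most 0.031 and its adjusted p never fell under 0.26. With upper-quartile scaling the embryos no longer overlapped, at 62.6 to 79.6 CPM per kilobase in HET and 80.3 to 89.3 in WT.

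**Figure D3:**
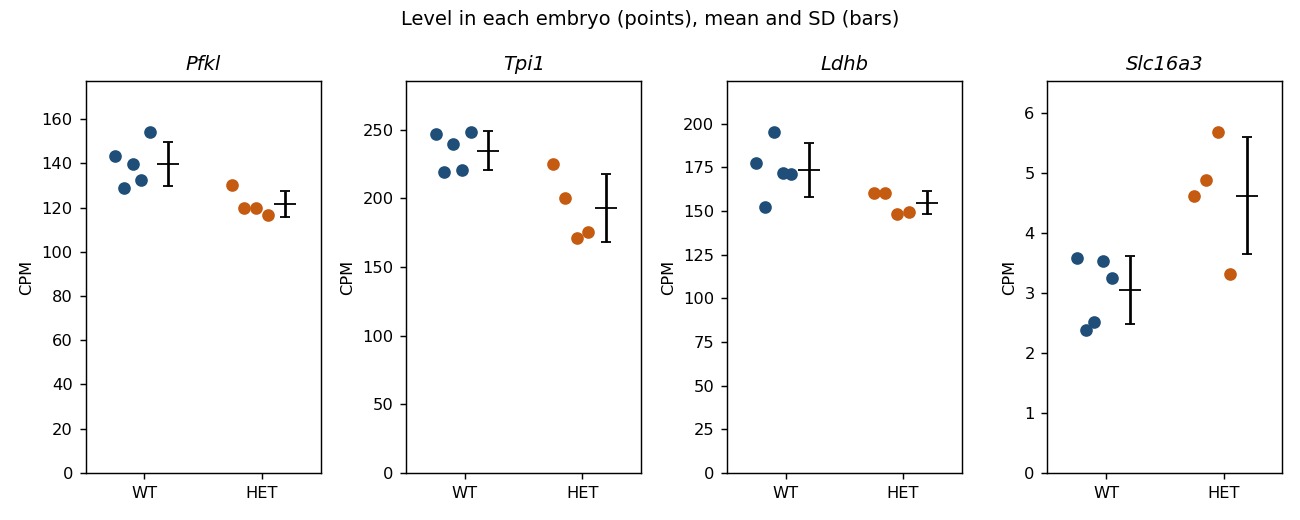
CPM in each embryo for the 4 members with an unadjusted edgeR p under 0.05, with mean and SD beside the points. HET embryos are lower on average for *Pfkl*, *Tpi1* and *Ldhb* and higher for *Slc16a3*, and at least 1 HET embryo lies inside the WT range for each gene.

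The later stage of glycolysis, which returns ATP, is served largely by single genes. *Gapdh*, glyceraldehyde-3-phosphate dehydrogenase and a common reference gene, was at 577, 476, 573, 497 and 557 CPM in WT and 588, 527, 453 and 463 CPM in HET embryos. HET embryo 5 was the highest and HET embryo 7 the lowest of the 9, and the log2 fold change was −0.08 (95% interval −0.29 to 0.13). *Pgk1*, phosphoglycerate kinase, was at 154, 130.3, 157, 142 and 156 CPM in WT and 156, 138, 118 and 119.5 CPM in HET embryos. HET embryos 7 and 24 were the lowest of the 9, and the log2 fold change was −0.15 (95% interval −0.36 to 0.05). *Pgam1*, phosphoglycerate mutase, was at 51.7, 45.4, 48.8, 46.2 and 50.1 CPM in WT and 55.5, 50.95, 45.9 and 46.04 CPM in HET embryos. HET embryo 5 was above every WT embryo and HET embryos 6, 7 and 24 lay inside the WT range. The log2 fold change of *Pgam1* was 0.03 (95% interval −0.13 to 0.20).

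These 3 genes have processed copies elsewhere in the genome. Of the 50-base words in their exonic sequence, 25.1% for *Gapdh*, 36.2% for *Pgam1* and 53.9% for *Pgk1* also occur in other annotated genes. The treatment of reads with several alignments is not given in the sources used here, so their levels are uncertain to that extent.

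*Eno1*, the broadly expressed enolase, was at 205, 176, 199, 186 and 198 CPM in WT and 231, 212, 184 and 183 CPM in HET embryos. HET embryo 5 was the highest, and the log2 fold change was 0.07 (95% interval −0.11 to 0.25), or 0.00 without HET embryo 5. A copy, *Eno1b*, shares 25.3% of its 50-base words and had 1778 to 2552 counts per embryo, with a log2 fold change of 0.08 and an edgeR adjusted p of 0.929. *Eno2*, the neuronal enolase, was at 30.8, 30.4, 30.5, 31.8 and 30.7 CPM in WT and 28.2, 31.97, 40.6 and 36.4 CPM in HET embryos. All 5 WT embryos lay close together, whereas HET embryos ran from the lowest to the highest value of all 9, and the log2 fold change was 0.15 (95% interval −0.06 to 0.36). Its share of the enolase level per kilobase was 15.5% ± 0.860 (SD) in WT and 16.4% ± 3.60 (SD) in HET.

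*Pkm*, pyruvate kinase and the most abundant member per kilobase, was at 1058, 829.6, 999, 877 and 1039 CPM in WT and 1159.9, 950.4, 824 and 835 CPM in HET embryos. HET embryo 5 was the highest and HET embryo 7 the lowest, and the log2 fold change of −0.03 (95% interval −0.28 to 0.23) turned positive, to at most 0.03, when WT embryo 5 or 43 or HET embryo 7 or 24 was left out. The counts are per gene, so its alternative splice forms were not separated here. A gene model awaiting experimental support, *Gm49759*, covers 15.3% of its exonic bases on the same strand. Of the 50-base words of *Pkm*, 25.8% also occur in other annotated genes, so its level is uncertain in the same way.

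Lactate dehydrogenase is built from *Ldha* subunits, associated with lactate production, and *Ldhb* subunits, associated with lactate oxidation. *Ldha* was at 403, 394, 449.7, 408 and 467 CPM in WT and 479, 398, 372 and 332 CPM in HET embryos. HET embryo 5 was above every WT embryo and HET embryos 7 and 24 below every WT embryo, and the log2 fold change was −0.10 (95% interval −0.33 to 0.12). *Ldhb*, on chromosome 6 from 142490249 to 142507957, was at 177, 152, 195, 172 and 171 CPM in WT and 160.2, 160.5, 149 and 149 CPM in HET embryos. HET embryos 7 and 24 were below every WT embryo, and HET embryos 5 and 6 above WT embryo 15 only. The means were 174 ± 15.3 CPM in WT and 155 ± 6.60 CPM in HET (SD, n = 5 and 4), a log2 fold change of −0.17 (95% interval −0.33 to −0.01), with an edgeR adjusted p of 0.911 and an unadjusted p of 0.0413. Its unadjusted p was under 0.05 in 8 of the 17 alternative fits, and 21% of its 50-base words are shared with a processed pseudogene of 14 to 36 counts. The share of *Ldha* in the level per kilobase was 53.7% ± 1.96 (SD) in WT and 54.6% ± 3.03 (SD) in HET, so the balance of the subunits differed by less than the spread between embryos.

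Monocarboxylate carriers move lactate, pyruvate and ketone bodies. *Slc16a1*, found on endothelium and glia, held most of the carrier level per kilobase, 87.9% ± 2.19 (SD) in WT and 86.1% ± 3.15 (SD) in HET. It was at 53.01, 59.6, 67.6, 61.97 and 69.6 CPM in WT and 78.7, 66.2, 58.9 and 54.2 CPM in HET embryos. HET embryo 5 was above every WT embryo, and the log2 fold change was 0.05 (95% interval −0.20 to 0.30). *Slc16a3*, the low-affinity carrier of lactate-exporting cells including astrocytes, on chromosome 11 from 120948480 to 120960868, was scarce, at 3.58, 2.39, 2.52, 3.53 and 3.25 CPM in WT and 4.61, 4.89, 5.68 and 3.32 CPM in HET embryos. HET embryos 5, 6 and 7 were above every WT embryo, and HET embryo 24 was inside the WT range. The means were 3.05 ± 0.563 CPM in WT and 4.63 ± 0.981 CPM in HET (SD, n = 5 and 4). The log2 fold change was 0.60 (95% interval 0.19 to 1.003), a fold of 1.51, with an edgeR adjusted p of 0.754 and an unadjusted p of 0.00783. It rested on 108 to 275 counts per embryo. Over the 17 alternative fits its log2 fold change was 0.48 to 0.73 with adjusted p of 0.224 or more. *Slc16a7*, the high-affinity carrier of neurons, ranged over 11.5 to 21.9 CPM with a log2 fold change of 0.09 (95% interval −0.34 to 0.52).

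**Figure D4:**
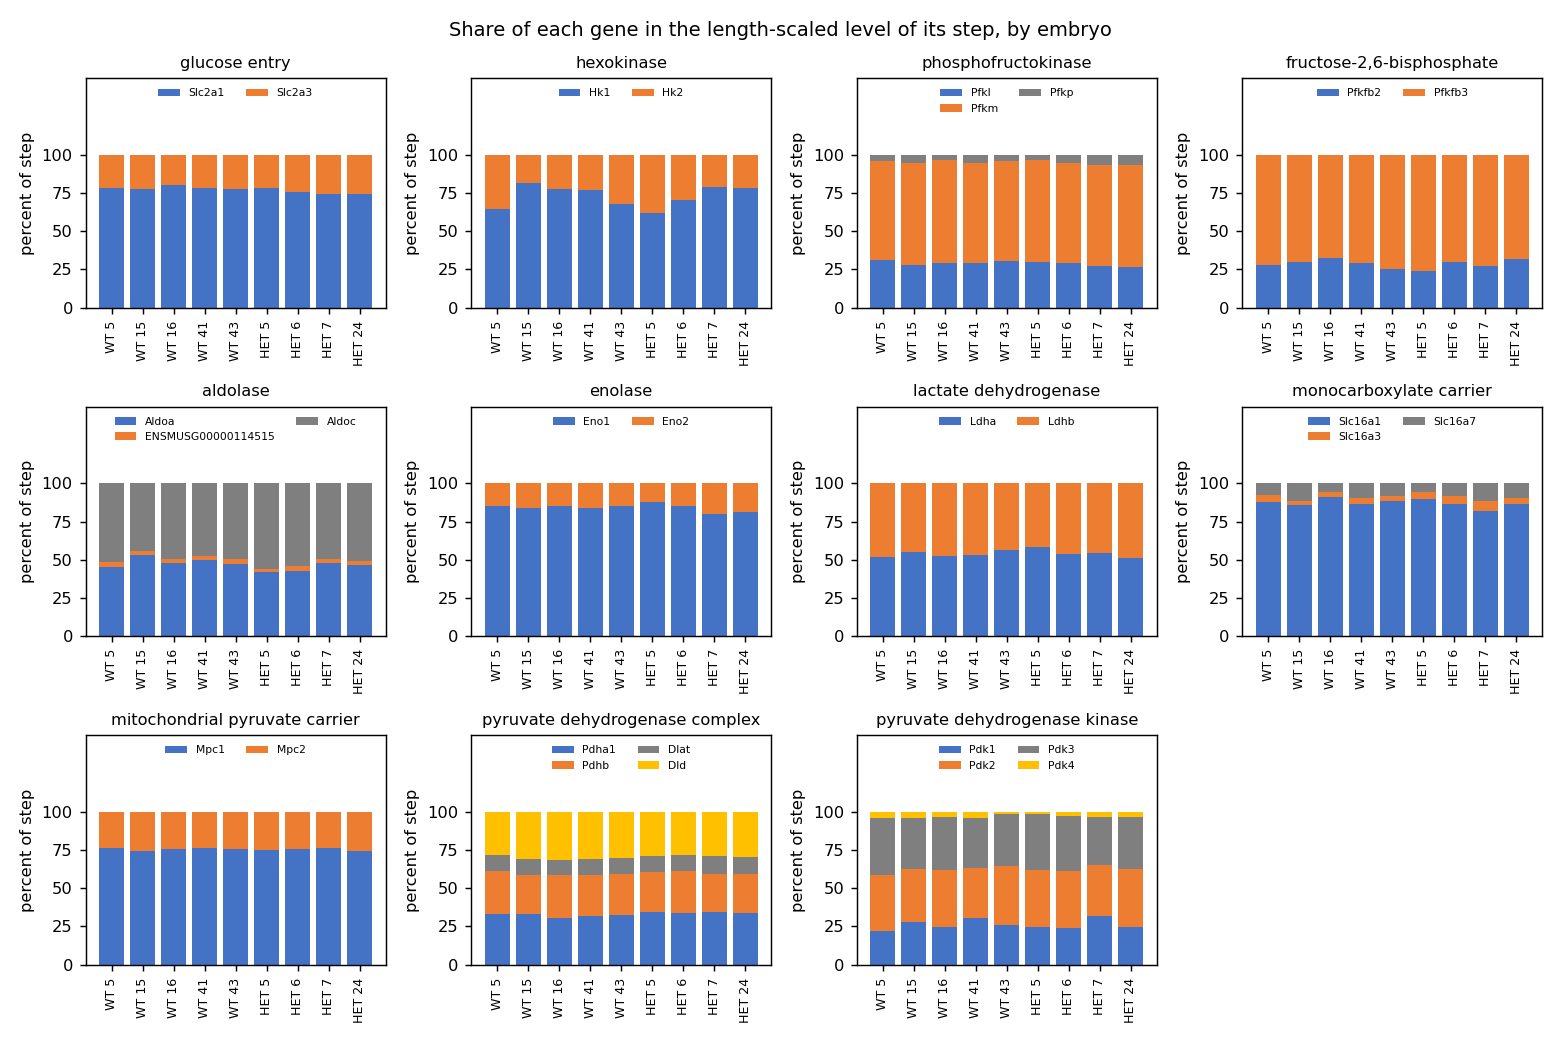
Share of each gene in the summed CPM per kilobase of its step, as stacked bars for the 9 embryos at the 11 steps with 2 or more rows. *Pdha1* is the single share whose HET values (33.5% to 34.3%) lie apart from the WT values (30.5% to 33.2%).

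Pyruvate enters mitochondria through a carrier of *Mpc1* and *Mpc2*. *Mpc1* was at 27.9, 29.2, 35.6, 30.9 and 29.8 CPM in WT and 28.3, 29.9, 30.2 and 29.7 CPM in HET embryos. HET embryos lay inside the WT range, with a log2 fold change of −0.06 (95% interval −0.23 to 0.11). An antisense transcript overlaps 23.1% of its exonic sequence, and 26.3% of its 50-base words also occur in other annotated genes on either strand. Both leave its counts uncertain. *Mpc2* ranged over 30.4 to 40.4 CPM with a log2 fold change of −0.02 (95% interval −0.20 to 0.16).

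The pyruvate dehydrogenase complex makes acetyl-CoA. *Pdha1*, its X-linked catalytic alpha subunit, was at 142, 136, 138, 138 and 139 CPM in WT and 152, 147, 135 and 130.3 CPM in HET embryos. HET embryos 5 and 6 were above every WT embryo and HET embryos 7 and 24 below, and the log2 fold change was 0.03 (95% interval −0.10 to 0.16). *Pdhb*, the beta subunit, ranged over 101 to 131 CPM with a log2 fold change of −0.10 (95% interval −0.28 to 0.08). *Dlat*, the acetyltransferase, ranged over 56.6 to 60.6 CPM with 0.04 (95% interval −0.07 to 0.14), the narrowest interval of the set. *Dld*, the dehydrogenase shared with other complexes, ranged over 114 to 141 CPM with −0.12 (95% interval −0.26 to 0.02).

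As a share of the summed level of these 4 genes per kilobase, *Pdha1* was 33.2, 33.2, 30.5, 32.02 and 32.3 in WT and 34.3, 33.9, 34.3 and 33.5 in HET embryos, in percent. Every HET embryo was above every WT embryo, although the means differed by only 1.74 percentage points, 32.2% ± 1.09 (SD) in WT and 33.98% ± 0.384 (SD) in HET. This held with the principal transcript length and with counts left undivided by length, which reuse the same counts. It was the only separation among 29 isoform shares, beside 1.85% of single genes tested, and is described here without a test. Antisense exons of *Map3k15* overlap 16.1% of the exonic sequence of *Pdha1*.

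Pyruvate dehydrogenase kinases switch the complex off. *Pdk2*, the highest per kilobase, was at 26.6, 25.3, 27.5, 22.7 and 29.3 CPM in WT and 28.1, 26.5, 23.02 and 25.4 CPM in HET embryos. The genotypes overlapped, with a log2 fold change of −0.03 (95% interval −0.22 to 0.17). *Pdk1*, a hypoxia-responsive kinase, ranged over 38.6 to 54.4 CPM with −0.03 (95% interval −0.27 to 0.22), and *Pdk3* over 17.3 to 22.8 CPM with −0.05 (95% interval −0.25 to 0.16). *Pdk4*, the kinase induced by fasting, was scarce at 1.19 to 3.40 CPM, with its lowest values in HET embryo 5 and WT embryo 43 and a log2 fold change of −0.35 (95% interval −0.96 to 0.26), which was −0.15 without HET embryo 5. *Pcx*, the carboxylase that replenishes oxaloacetate and in brain is typical of astrocytes, was at 45.3, 49.5, 43.5, 47.3 and 52.9 CPM in WT and 51.3, 48.4, 49.3 and 50.7 CPM in HET embryos. HET embryos lay inside the WT range, with a log2 fold change of 0.07 (95% interval −0.08 to 0.21).

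Members varied in groups among the HET embryos. HET embryo 5 was the highest HET embryo for 19 of 36 members, among them *Pkm*, *Hk2*, *Gapdh*, *Ldha*, *Aldoc* and *Slc16a1*, and the lowest for 8, among them *Hk1*, *Eno2* and *Pfkp*. HET embryo 7 was the highest for 12, including *Hk1*, *Eno2*, *Pfkp*, *Slc16a3* and *Slc16a7*, and the lowest for 12. HET embryo 24 was the lowest for 14 members. Among WT embryos, WT embryo 15 was the lowest for 16 members. These counts were made for the members only. Without the same counts over all genes tested, a trait of the members cannot be told apart from a tendency of the whole embryo.

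Marker lists also differed between these embryos, the astrocyte list as given beside *Aldoc*. The neuron list, as the mean log2 CPM of its 6 genes, was lowest in HET embryo 5 (8.98) and highest in HET embryo 7 (9.27), and its summed level was 5159 to 5862 CPM in WT and 5139 to 6158 CPM in HET. The radial glia list of 6 genes, as the same mean, was highest in WT embryo 5 (8.18) and lowest in HET embryo 7 (7.36), and its summed level was 2083 to 2674 CPM in WT and 1749 to 2315 CPM in HET. No gene of either list was at 0, and *Fabp7*, lower in HET with an edgeR adjusted p of 0.0223, was the only gene of the 12 to pass the test. The endothelium list summed to 107 to 144 CPM in WT and 103 to 111 CPM in HET, the microglia list to 35.02 to 44.5 and 36.4 to 44.8 CPM, and the red blood cell list to 219 to 567 and 378 to 444 CPM, with 0 genes of these lists past the threshold. Their part in the spread of the members was not tested. Leaving out HET embryo 5 raised the members with an unadjusted edgeR p under 0.05 from 4 to 10, beside 7.23% of all genes in that fit, and the adjusted count remained 0.

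**Figure D5:**
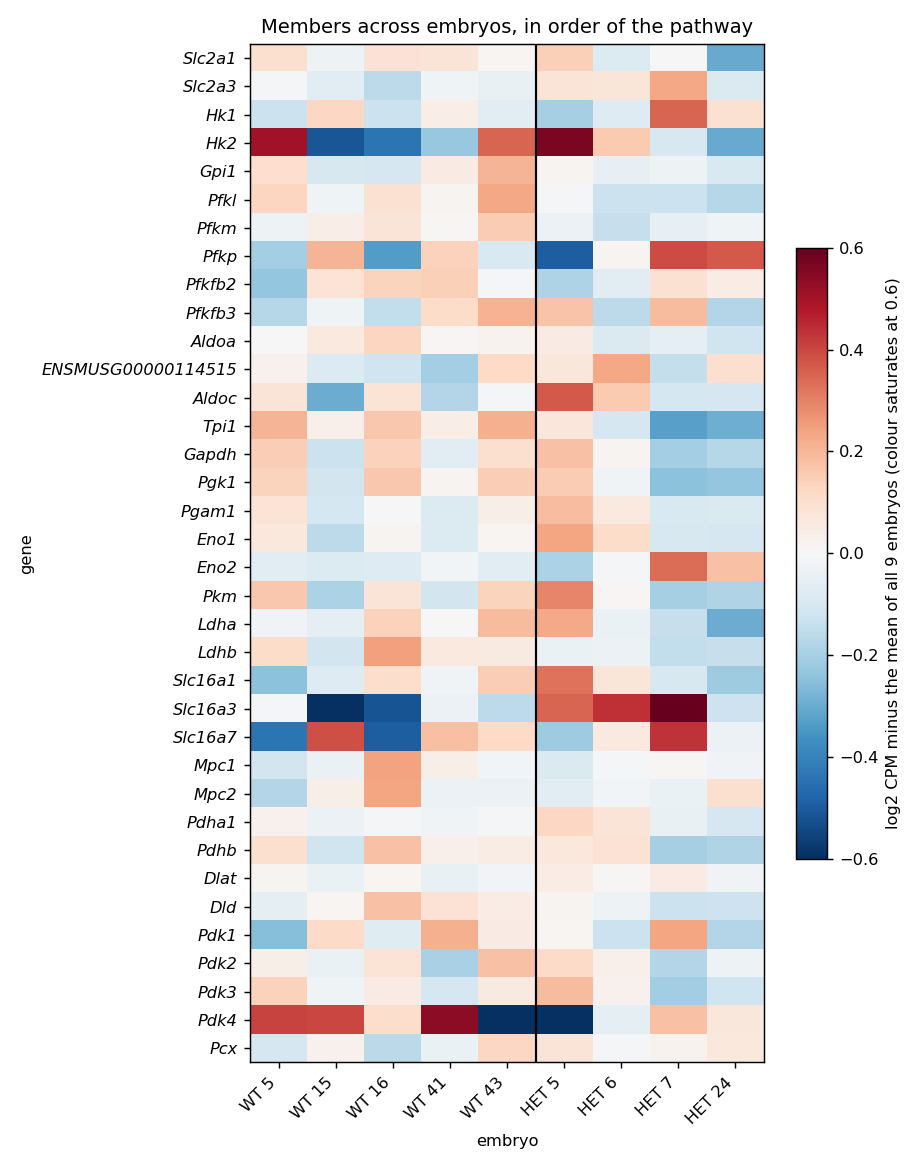
Log2 CPM of each member minus its mean over all 9 embryos, with the colour limited to 0.6 in either direction, embryos in columns and genes in pathway order. HET embryo 5 is above the mean for *Pkm*, *Hk2* and *Aldoc* and HET embryo 7 for *Hk1*, *Eno2* and *Pfkp*, and the genotypes are not set apart by a common colour.

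Outside the members, a list of 79 further genes of glucose, glycogen and pyruvate metabolism was read from the same fit. Of these, 72 were tested and 0 passed the adjusted threshold in edgeR or DESeq2. Without adjustment 8 (11.1%) had an edgeR p under 0.05, beside 5.42% of all genes tested. DESeq2 gave 9, beside 3.66% of all genes in that fit. All 8 were lower in HET, 4 of them with their highest values in the 3 WT embryos with *Ttr* at 2127 CPM or more. By sign 44 of the 72 (61.1%) were lower in HET, beside 51.5% of all genes tested, and the median log2 fold change was −0.071 beside −0.005. The 8 comprised 2 of 9 glucose carriers and sensors and 2 of 15 further isoforms and related genes, *Hkdc1* and *Pgam5*. *Pgam5* was not rare, with means of 66.0 CPM in WT and 58.1 CPM in HET. The others were 1 of 8 pentose phosphate genes, 1 of 11 glycogen genes and 2 of 4 genes of further monocarboxylate carriers and their chaperones. None of 3 gluconeogenesis, 3 glycerol phosphate shuttle, 7 malate-aspartate shuttle, 7 pyruvate dehydrogenase partner or 5 pyruvate fate genes tested was among them.

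The 3 lowest p-values belonged to genes with unlike patterns. *Pygb*, the brain glycogen phosphorylase, was at 262, 226, 226, 235 and 259.7 CPM in WT and 228, 203, 183 and 175 CPM in HET embryos. HET embryos 6, 7 and 24 were below every WT embryo, and the log2 fold change was −0.29 (95% interval −0.49 to −0.10), with an edgeR adjusted p of 0.706. *Slc16a8*, a lactate carrier of choroid plexus and retinal pigment epithelium, had −1.06 (95% interval −1.80 to −0.31) and an edgeR adjusted p of 0.79. *Slc2a12*, a glucose carrier, had −1.77 (95% interval −3.07 to −0.47) and an edgeR adjusted p of 0.857. The highest values of both genes were in the WT embryos 15, 16 and 41, with *Slc2a12* at 9.83 to 14.4 CPM there and 1.85 to 3.74 CPM in the other 6 embryos. Those are the embryos with *Ttr* at 2127 to 2631 CPM. The same held for *Hkdc1*, a hexokinase-like gene, at 2.13 to 2.71 CPM there and 0.207 to 0.634 CPM elsewhere, and for *Emb*, a carrier chaperone, at 11.2 to 14.8 CPM and 4.59 to 7.07 CPM, both named after their values were seen. The choroid plexus list of 8 genes summed to 18.0 to 2866 CPM in WT and 27.5 to 526 CPM in HET, with 0 of 8 genes past the adjusted threshold and *Kl* at 0 in WT embryo 5, and its part in these 4 differences was not tested.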

How the data were processed

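RNA-seq of bulk forebrain was deposited for 5 WT and 4 HET embryos, grouped by the genotype in their labels. The deposited unit is the read count per gene, which the authors left unnormalized. Per the study's methods and the submitters' processing notes, poly(A) RNA libraries were aligned with STAR 2.7.9a to GRCm38.p6 and counted with featureCounts on GENCODE M25, and only a single read of each pair was used. Strand and multi-mapping settings are not given in the sources used here.

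Counts were filtered with filterByExpr (minimum count 10), scaled by TMM and compared with the quasi-likelihood test of edgeR 4.0.16 in R 4.3.3 over all 17818 genes passing the filter, with Benjamini-Hochberg adjustment and a threshold of 0.05. The common biological coefficient of variation was 16.8%. No pair of samples had identical counts, and totals were 42640218 to 62830060 counts per embryo. Duplicate reads were not told apart from independent molecules. Lengths and coordinates came from GENCODE M21 (GRCm38), which lists 55141 of the 55401 identifiers, and promoter windows from RefSeq.

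Values in every embryo were printed for the most abundant member of each step per kilobase, for the gene of each step with a single member, and for members with an unadjusted p under 0.05 or without overlap. Beyond the members, *Npas3*, marker genes that move with a result and the 3 other pathway genes with the lowest p were named. The members, the other pathway list and the marker lists (neuron, radial glia, astrocyte, endothelium, microglia, red blood cell, choroid plexus) were chosen with earlier results of these data known. The alternatives were DESeq2 1.42.0, limma-voom (limma 3.58.1), 2 other scalings, 2 other filters, a choroid plexus score (mean log2 CPM of 8 markers) as a covariate, the embryos with *Ttr* under 100 CPM and leaving out each embryo. For the shares, the principal transcript length was added after seeing the data.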

Additional observations from a re-analysis of the deposited data

Results flagged for a closer look

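In 154 groups of 4 or 5 embryos examined for a single embryo far from the rest (Dixon's criterion), 4 had such an embryo, where chance gives about 1 in 20 groups, or 7.7. *Eno2*, the neuronal enolase, was at 31.8 CPM in WT embryo 41, with the other WT embryos at 30.4 to 30.8 CPM. The share of *Pdk1* in the pyruvate dehydrogenase kinase level per kilobase was 32.1% in HET embryo 7 and 24.2% to 24.8% in the other HET embryos. The summed phosphofructokinase level was 62.0 CPM per kilobase in HET embryo 6 and 65.5 to 65.8 in the other HET embryos, all 4 being below the WT embryos. *Npas3* was at 34.1 CPM in HET embryo 7 and at 27.8 to 28.2 CPM in the other HET embryos, which puts this embryo inside the WT range for the deleted gene. It is also the HET embryo with the highest *Hk1*, *Eno2* and *Slc16a3*.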

How the results depend on the processing

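Under all 17 alternatives, 0 members and 0 of the other pathway genes passed the adjusted threshold, 18 to 24 members were lower in HET by sign as each embryo was left out (19 or 20 under the other alternatives), and *Npas3* was lower in HET throughout, at −0.37 to −0.25. DESeq2 called 84 genes over the whole table beside 25 from edgeR, without any member among them. Leaving out HET embryo 5 gave 10 members an unadjusted p under 0.05 beside 4, and 24 members lower by sign beside 20. Of 612 fits of single members, 40 changed sign, in 15 members, all with unadjusted p over 0.05, and the cause was not tested. Adding the choroid plexus score to the model moved the log2 fold change to −0.125 for *Hk2*, 0.031 for *Pfkfb2*, −0.007 for *Pfkfb3*, −0.020 for *Pgam1*, 0.042 for *Mpc2* and 0.030 for *Pdk1*. The subset with *Ttr* under 100 CPM gave −0.193 for *Hk2*, 0.070 for *Pfkfb2*, −0.014 for ENSMUSG00000114515, −0.004 for *Pgam1*, 0.031 for *Mpc1*, 0.061 for *Mpc2* and 0.142 for *Pdk1*. Leaving out each embryo gave −0.025 to 0.160 for *Hk1*, −0.063 to 0.285 for *Hk2*, −0.046 to 0.077 for *Pfkfb3*, −0.025 to 0.070 for *Pgam1*, −0.144 to 0.031 for *Pkm*, −0.062 to 0.124 for *Slc16a1*, −0.047 to 0.209 for *Slc16a7*, −0.088 to 0.004 for *Mpc1*, −0.061 to 0.044 for *Mpc2*, −0.010 to 0.065 for *Pdha1*, −0.115 to 0.028 for *Pdk1*, −0.077 to 0.024 for *Pdk2* and −0.123 to 0.013 for *Pdk3*. The difference in the *Pfkp* share, 0.95 percentage points per kilobase, was 2.49 with counts undivided by length. No paired analysis was possible because the litter of each embryo is not given. The genotypes share a single replicate number, 5, and the labels do not give it as a pair. The widest intervals were those of *Pdk4*, which had few counts, and *Hk2*, which varied between embryos.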

Other observations

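*Gm10291*, a processed pseudogene of *Gapdh* named after its values were seen, had 375 counts in WT embryo 41 and 1 to 5 counts in each of the other 8 embryos, or 5.91 CPM beside at most 0.110 CPM. It shares 10.8% of the 50-base words of *Gapdh*. *Gapdh* itself was at 497 CPM in WT embryo 41, inside the range of the other WT embryos.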
